A study of Mus musculus with 15 samples.

Results

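The 10 genes described here, Mos, Wee2, Fbxo43, Fbxo5, Ccnb1, Ccnb2, Cdk1, Cdc25a, Cdc25b and Plk1, encode regulators of the exit from meiosis and of entry into M phase. They were chosen by name from the table of expression values. All 10 were among its 14392 genes. RNA-seq was performed on 8 libraries of 10 pooled mouse embryos each, with 2 libraries of zygotes and 2 of 2-cell embryos for each genotype. The embryos called WT came from wild-type mothers. Those called cKO carried the genotype Usp16 maternal -/ paternal +, and came from Usp16 fl/fl;Gdf9-Cre mothers and wild-type males. The Gdf9-Cre transgene acts in oocytes from the primordial follicle on and removes Usp16, the gene of a histone H2A deubiquitinase, while the allele from the father is intact. The zygotes are the samples labelled as 1-cell embryos. All mice had a C57BL/6 background, the mothers were juvenile superovulated females, and the labels state culture in KSOM for every sample. The hour at which the 2-cell embryos were collected is not given in the sources used here. Nothing says that the 2 libraries of a group came from separate mothers or days, so p-values measure only the spread between these libraries, which may be technical. A change in all embryos of a pool and a larger change in some of them cannot be told apart.

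The mature mouse egg is arrested in metaphase of meiosis II by cytostatic factor. MOS, a kinase upstream of the MAPK cascade, sustains this arrest, and FBXO43, also called EMI2, holds it by inhibiting the anaphase-promoting complex (APC/C). Fertilization releases calcium, FBXO43 is destroyed, the APC/C degrades cyclin B, and the activity of CDK1 falls. Opposed enzymes then set CDK1 activity in the cell cycles of the embryo. The inhibitory kinases, among them the oocyte kinase WEE2, phosphorylate CDK1, and the phosphatases CDC25A and CDC25B remove that phosphate. PLK1 promotes this activation, and FBXO5, also called EMI1, inhibits the APC/C in interphase. Eggs store many of these mRNAs in a dormant form. Most of them are cleared around the first cleavage, while the embryonic genome starts to be transcribed at the 2-cell stage.

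Promoter sequences of RefSeq, on build GRCm38.p6, were found for 8 of the 10 genes. The table held none for Mos and Fbxo43. The promoters of genes expressed at the end of the cell cycle often carry CCAAT boxes, to which the factor NF-Y binds, and a CHR element. Both were searched on either strand, as CCAAT and as TTTGAA, from 250 bases before to 50 after each start. CCAAT was present in 8 of the 8 promoters, compared with 37.4% of all 32851 promoters of this length. At least 2 copies were present in 6 of the 8, compared with 11.7%, and TTTGAA in 4, compared with 17.9%. Windows are shown for Wee2, Cdc25b, Cdk1 and Ccnb1, which were called in 2-cell embryos, and for Ccnb2, which was not. They are on the strand of the gene, from 110 bases before the start to 20 after it, with the matches in capitals. ATTGG and TTCAAA are the same motifs on the other strand.
Wee2, chr6:40442753-40442882, plus strand: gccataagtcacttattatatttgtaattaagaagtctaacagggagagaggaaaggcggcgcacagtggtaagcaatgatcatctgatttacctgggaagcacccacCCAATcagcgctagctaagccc
Cdc25b, chr2:131186838-131186967, plus strand: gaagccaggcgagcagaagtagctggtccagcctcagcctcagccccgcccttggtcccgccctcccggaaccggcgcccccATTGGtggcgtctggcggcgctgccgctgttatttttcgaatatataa
Cdk1, chr10:69352893-69353022, minus strand: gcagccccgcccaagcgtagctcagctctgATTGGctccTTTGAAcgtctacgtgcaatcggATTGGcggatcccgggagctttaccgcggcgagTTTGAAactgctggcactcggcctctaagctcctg
Ccnb1, chr13:100786467-100786596, minus strand: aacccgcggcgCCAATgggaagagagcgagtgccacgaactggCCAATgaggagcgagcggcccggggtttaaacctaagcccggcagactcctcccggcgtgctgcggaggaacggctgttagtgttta
Ccnb2, chr9:70421535-70421664, minus strand: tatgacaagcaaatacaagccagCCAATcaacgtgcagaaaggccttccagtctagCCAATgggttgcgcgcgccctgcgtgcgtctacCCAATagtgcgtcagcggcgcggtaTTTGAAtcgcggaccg
The windows of Wee2 and Cdc25b, which were lower in cKO 2-cell embryos, held 1 CCAAT each and no TTTGAA. That of Cdk1, which was higher, held 2 of each, and that of Ccnb1, also higher, held 2 CCAAT and no TTTGAA. The window of Ccnb2, which was not called, had the most CCAAT of the 5, with 3 copies and 1 TTTGAA. Over the whole stretch searched, CCAAT had 2 copies in Wee2, 1 in Cdc25b, 3 in Cdk1, 2 in Ccnb1 and 3 in Ccnb2. Fbxo5, whose 2-cell log2 fold change of -1.64 was not called, had 3 CCAAT and 1 TTTGAA. A relation between the motifs and the direction of change was not tested. A match is a description of these letters and does not show that a factor is bound.

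Dormant mRNAs of the egg are often marked by a cytoplasmic polyadenylation element near the polyadenylation hexamer, and the cDNA here was primed from poly(A) tails. TTTTAT and TTTTAAT were therefore searched in the 100 bases before the last AATAAA or ATTAAA of each transcript, where such a hexamer lay in the last 50 bases of the longest GENCODE M1 transcript. Of the 10 genes, 9 had the hexamer, and 3 of these had an element, compared with 16.2% of the 14828 genes with a hexamer. The sites of these 3 genes, with the element in capitals, were as follows.
Wee2: ataTTTTAATccagatcattgtaAATAAA
Fbxo43: tgtTTTTATactatacacacatatttc
Fbxo5: tttTTTTATatctgtgaatacctgttt
In Wee2 the hexamer, also in capitals, began 20 bases after the start of the element, so that both are in the stretch shown. It began 77 bases after it in Fbxo43 and 67 bases after it in Fbxo5. A loss of mRNA and a shorter poly(A) tail cannot be told apart in such libraries.

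The stage labels were checked against marker genes. All 10 oocyte and zygote markers were above the floor in every library. The 9 measured markers of 2-cell embryos had a summed level of 10.45 to 13.99 FPKM in the 4 zygote libraries, 713 to 974 in the WT and 334 to 464 in the cKO 2-cell libraries. Cumulus and granulosa markers reached a summed 28.7 FPKM at most, nearly all of it Cyp19a1, and sperm markers 23.1, mostly Prm2. Usp16 was at 184 and 187 FPKM in WT zygotes and at 16.8 and 22.0 in cKO zygotes, with no overlap, and its mean was 9.58-fold lower. limma gave an adjusted p of 0.19 for this difference, in a comparison in which it called 3 genes of all. In 2-cell embryos Usp16 was at 168 and 183 in WT and at 168 and 84.8 in cKO. The replicates of cKO 2-cell embryos stood apart from the other groups, since 36% of the genes above the floor differed by more than 2-fold between them, compared with 1.56% to 6.03% in the other groups. One estimate of the spread for all groups therefore understates the error in this group, and the fit with a spread for each group is given beside the 2-cell calls.

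Values are FPKM, which are per length of transcript. The order of genes by FPKM can also depend on the poly(A) tail from which each mRNA was primed, which was not measured. The level of Ccnb1, and so its rank, is uncertain, since 59.3% of its 50-base windows also occur elsewhere in mm9. All 10 genes were above the floor of 1 FPKM in all 8 libraries, and the lowest value was 2.19, of Cdc25b. In WT zygotes the highest was Ccnb1, with a mean above 99.5% of all genes, followed by Wee2, Ccnb2 and Plk1. The libraries of neighbours in this order did not overlap. Fbxo5 and Fbxo43 overlapped with each other, as did Cdk1 and Cdc25a, and Mos and Cdc25b were the lowest. The first 6 genes kept the same order in cKO zygotes. In WT 2-cell embryos Cdk1 was the third and Ccnb2 the sixth. In cKO 2-cell embryos Cdk1 was the second, behind Ccnb1 and above Wee2 without overlap, and Wee2, Ccnb2, Plk1 and Fbxo5 followed, each overlapping the next.

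**Figure D1:**
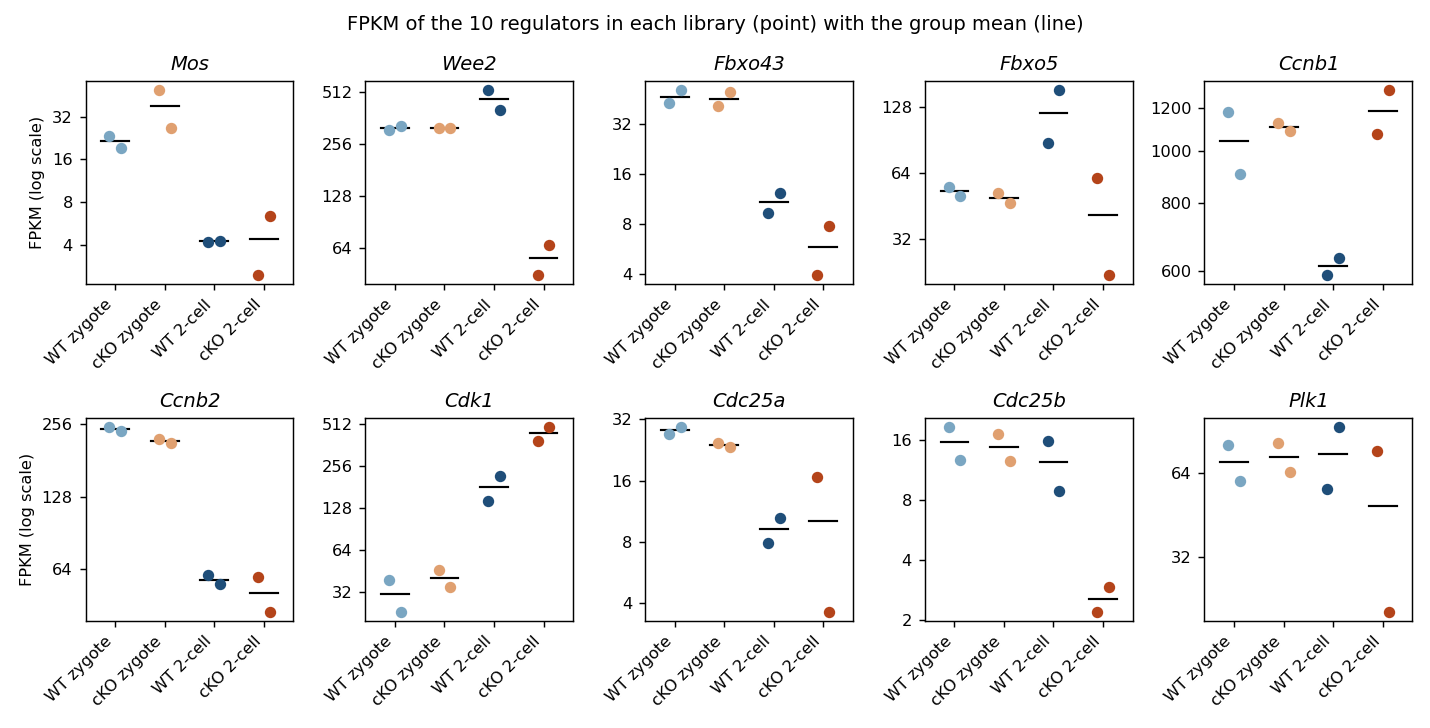
FPKM of each of the 10 genes in each library, on a log scale with its own range per gene; points are the 2 libraries of a group and lines the group means. The 4 zygote libraries lie close together for nearly every gene. The cKO 2-cell libraries lie below the WT ones for Wee2, Cdc25b, Fbxo5 and Fbxo43 and above them for Cdk1 and Ccnb1, and they lie far apart from each other for Cdc25a and Plk1.

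The first question was how the mRNAs changed from the zygote to the 2-cell stage in each genotype. In WT embryos limma called 1 of the 10 genes higher and 4 lower, at an adjusted p under 0.05. Of all genes, 34.2% were called higher and 15.5% lower. By the fold rule, in which a group mean is more than 3 times the other, 1 was higher, compared with 26% of all genes, and 4 were lower, compared with 8.78%. The 4 lower genes were not the same by both rules. Mos, Fbxo43 and Ccnb2 were lower by both. limma also called Ccnb1, which fell 1.70-fold, and the fold rule also gave Cdc25a, which fell 3.07-fold (limma adjusted p = 0.074). In cKO embryos limma called 1 higher, compared with 24.6%, and 5 lower, compared with 27.1%. The fold rule gave 1 higher, compared with 22.8%, and 5 lower, compared with 19.2%. The median log2 fold change of the 10 genes was -0.55 in WT and -1.78 in cKO embryos, while that of all genes was 0.28 and 0.00. The fold rule has no error of its own. With 2 libraries a group, the smallest two-sided p of an exact permutation test is 0.333.

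The second question was how cKO and WT embryos of the same stage differed. In zygotes limma called 0 of the 10 genes higher and 0 lower, compared with 0.0208% and 0% of all genes, and 0 had an unadjusted p under 0.05. The fold rule gave 0 in either direction, compared with 0.104% of all genes higher and 0.0486% lower. The zygote log2 fold changes of the 10 genes ranged from -0.23 for Cdc25a to 0.73 for Mos. In 2-cell embryos limma called 2 higher, Cdk1 and Ccnb1, compared with 6.16% of all genes, and 2 lower, Wee2 and Cdc25b, compared with 24.6%. By the fold rule 0 were higher, compared with 2.84%, and the same 2 genes were lower, compared with 13.5%. The median of all genes was -0.30 in this comparison and 0.02 after scaling each library by its median ratio, which changed the calls over all genes from 887 higher and 3538 lower to 1605 higher and 1871 lower. The difference between the genotype effects of the 2 stages, the interaction, was called for Wee2, which was 1 gene lower, compared with 10.2% of all genes, and for 0 genes higher, compared with 1.58%. All comparisons of a stage share its libraries with the comparisons of a genotype.

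**Figure D2:**
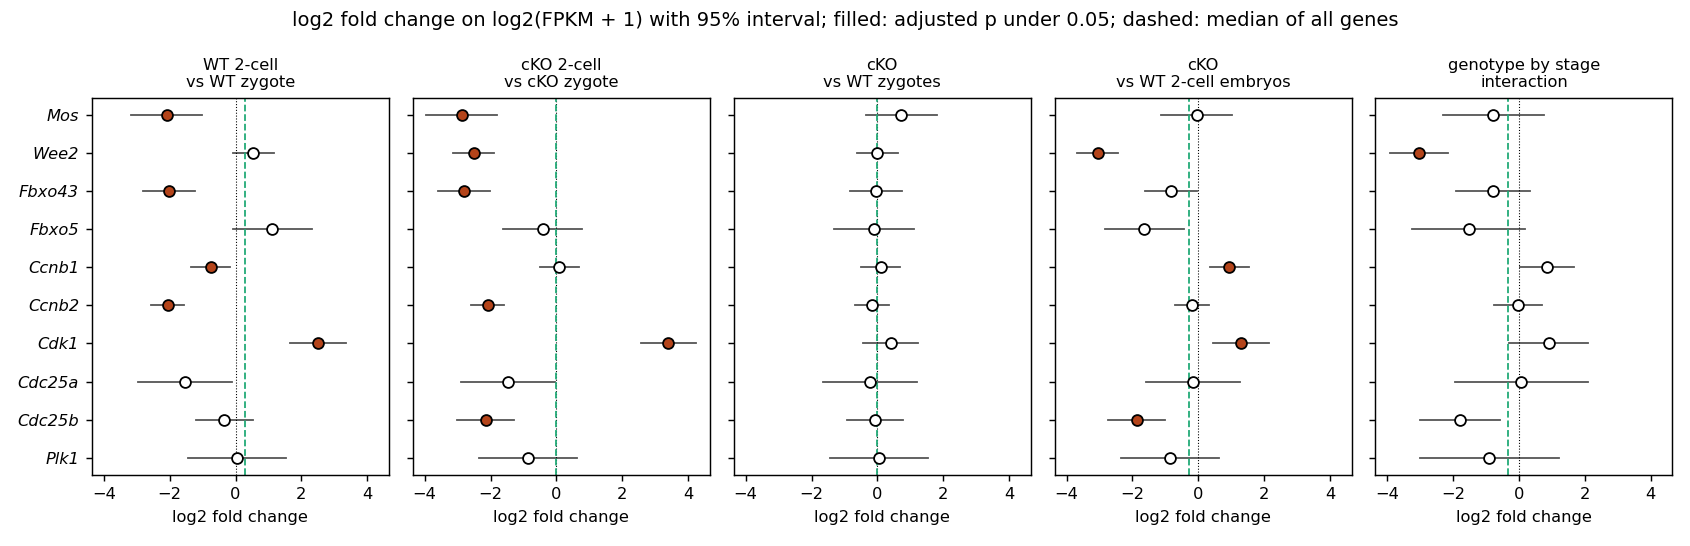
log2 fold change of each gene on the log2(FPKM + 1) scale in 5 comparisons, with its 95% interval; filled points have an adjusted p under 0.05, the dotted line is 0 and the dashed line the median of all genes. In zygotes every interval includes 0. At the 2-cell stage Wee2 and Cdc25b lie to the left, at -3.06 and -1.87, and Ccnb1 and Cdk1 to the right, at 0.94 and 1.30.

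Wee2 encodes the oocyte-specific kinase that phosphorylates and inhibits CDK1. On mm9 it lies on chromosome 6 from 40392862 to 40416812, on the plus strand, in 12 exons. Its level was 307 and 327 FPKM in WT zygotes and 318 and 316 in cKO zygotes. It was 523 and 405 in WT 2-cell embryos and 44.4 and 66.8 in cKO 2-cell embryos. The 2 cKO 2-cell libraries were thus below all the others, and the zygotes of the 2 genotypes overlapped. The mean was 8.35-fold lower in cKO than in WT 2-cell embryos, with a log2 fold change of -3.06 (standard error 0.26, limma adjusted p = 0.0014). The interaction was -3.06 as well (standard error 0.36, limma adjusted p = 0.010). From zygote to 2-cell embryo, Wee2 fell 5.70-fold in cKO embryos (limma adjusted p = 4.5e-04) and had a log2 fold change of 0.54 in WT embryos, which was not called (95% interval -0.08 to 1.16, limma adjusted p = 0.13) except without cKO 2-cell replicate 1 or cKO 2-cell replicate 2. The 2-cell call was kept with a spread for each group (limma adjusted p = 0.010), under each scaling and without any 1 of the 8 libraries. It was lost when the 4 libraries of the comparison were fitted alone (limma adjusted p = 0.060), a fit with 2 residual degrees of freedom in which 0 genes were called of all. The call of the interaction was lost without WT zygote replicate 1, WT zygote replicate 2, cKO zygote replicate 1 or cKO zygote replicate 2. Its value was then -3.01, -3.10, -3.05 and -3.06, in this order. Each of these fits leaves 1 library in a group, and nearly all interactions called over all genes were lost in them too.

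Mos, the kinase gene of the cytostatic arrest, lies on chromosome 4 from 3797804 to 3799252, on the minus strand, in 1 exon. Its level was 23.5 and 19.4 FPKM in WT zygotes, 49.1 and 26.5 in cKO zygotes, 4.17 and 4.30 in WT 2-cell embryos and 2.46 and 6.38 in cKO 2-cell embryos. All 2-cell libraries were below all zygote libraries. It fell 5.06-fold in WT (limma adjusted p = 0.0092) and 8.55-fold in cKO embryos (limma adjusted p = 0.0022). The WT call was lost without WT zygote replicate 1, WT 2-cell replicate 1 or WT 2-cell replicate 2. The cKO call was lost with cKO embryos fitted alone (limma adjusted p = 0.05004). Both cKO zygote libraries were above both WT ones, but the difference of 0.73 on the log2 scale had a 95% interval of -0.35 to 1.81 and a limma adjusted p of 1. In 2-cell embryos it was -0.05, with an interval of -1.13 to 1.03, and 0.34 under median-ratio scaling.

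Fbxo43, the APC/C inhibitor of the arrested egg, lies on chromosome 15 from 36079815 to 36094639, on the minus strand, in 5 exons. It was at 42.9 and 51.4 FPKM in WT zygotes, 41.1 and 50.2 in cKO zygotes, 9.43 and 12.3 in WT 2-cell embryos and 3.96 and 7.81 in cKO 2-cell embryos. It fell 4.34-fold in WT (limma adjusted p = 0.0031) and 7.76-fold in cKO embryos (limma adjusted p = 7.2e-04), and both were called in each of the 19 alternative fits. The cKO 2-cell libraries were both below the WT ones, and the log2 fold change was -0.83, with a 95% interval of -1.63 to -0.04, which was not called (limma adjusted p = 0.10). It was called after sum scaling, at -1.06 (limma adjusted p = 0.035), and without cKO 2-cell replicate 2, at -1.25 (0.022).

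Fbxo5, the interphase inhibitor of the APC/C, lies on chromosome 10 from 4540941 to 4547381, on the plus strand, in 5 exons. Its level was 55.4 and 50.3 FPKM in WT zygotes and 51.9 and 46.5 in cKO zygotes. It was 87.4 and 153 in WT 2-cell embryos and 60.7 and 21.9 in cKO 2-cell embryos. The WT 2-cell libraries were thus above the zygotes and above the cKO 2-cell libraries, and the 2 cKO 2-cell libraries lay on either side of the zygotes. The 2-cell difference of -1.64 (standard error 0.50) just missed the threshold (limma adjusted p = 0.051). It was called after sum scaling (0.046) and over genes with a mean of at least 5 FPKM (0.027), and not with a spread for each group (0.14). It was -2.35 without cKO 2-cell replicate 1 (limma adjusted p = 0.010) and -0.92 without replicate 2 (limma adjusted p = 0.12). The interaction of -1.53 was not called (limma adjusted p = 0.20), but was called without cKO 2-cell replicate 1, at -2.25 (limma adjusted p = 0.030). From zygote to 2-cell embryo the log2 fold change was 1.12 in WT embryos (limma adjusted p = 0.11), which was called with a spread for each group (0.031) and without cKO 2-cell replicate 1 or cKO 2-cell replicate 2, and -0.42 in cKO embryos (limma adjusted p = 0.54). Of its 50-base windows, 8.99% also occur elsewhere in mm9, at a stretch shared with Glcci1, Gm16039 and the pseudogene Gm16042.

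CDK1 is the kinase of M phase, and cyclin B1 and cyclin B2 are its partners. Cdk1 lies on chromosome 10 from 68799383 to 68815686, on the minus strand, in 8 exons. Its level was 39.4 and 23.1 FPKM in WT zygotes and 46.4 and 35.0 in cKO zygotes. It was 143 and 218 in WT 2-cell embryos and 389 and 488 in cKO 2-cell embryos. The 2-cell libraries were above the zygotes in both genotypes, and the cKO 2-cell libraries were above the WT ones. It rose 5.77-fold in WT (limma adjusted p = 0.0017) and 10.8-fold in cKO embryos (limma adjusted p = 4.6e-04), and both were called in each of the 19 alternative fits. Its mean was 2.43-fold higher in cKO than in WT 2-cell embryos, with a log2 fold change of 1.30 (standard error 0.35, limma adjusted p = 0.035). This call was lost with a spread for each group (limma adjusted p = 0.39), after quantile normalization (0.097) or sum scaling (0.051) and with the 4 libraries fitted alone (0.12). It was also lost without any 1 of WT 2-cell replicate 1, WT 2-cell replicate 2, cKO 2-cell replicate 1, cKO 2-cell replicate 2, cKO zygote replicate 1 or cKO zygote replicate 2. The interaction of 0.89 was not called (limma adjusted p = 0.28).

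Ccnb1 lies on chromosome 13 from 101548605 to 101556525, on the minus strand, in 9 exons. Its level was 1179 and 904 FPKM in WT zygotes, 1125 and 1086 in cKO zygotes, 590 and 635 in WT 2-cell embryos and 1073 and 1292 in cKO 2-cell embryos. The WT 2-cell libraries were below the 6 others, and the cKO 2-cell libraries overlapped the zygotes. Ccnb1 fell 1.70-fold in WT embryos (limma adjusted p = 0.042) and had a log2 fold change of 0.09 in cKO embryos (95% interval -0.50 to 0.68, limma adjusted p = 0.84). Its mean was 1.93-fold higher in cKO than in WT 2-cell embryos, or 0.94 on the log2 scale (standard error 0.24, limma adjusted p = 0.031). That call was lost after quantile normalization, at 0.36 (limma adjusted p = 0.32), with a spread for each group (0.27) and with the 4 libraries fitted alone (0.16). It was also lost without WT 2-cell replicate 1, WT 2-cell replicate 2, cKO zygote replicate 1 or cKO zygote replicate 2. The call of the fall in WT embryos was lost without any 1 of the 4 zygote and 2 WT 2-cell libraries. It was also lost after quantile normalization (limma adjusted p = 0.088), with a spread for each group (0.059) and with WT embryos fitted alone (0.064). The interaction of 0.84 was not called (limma adjusted p = 0.16). The level of Ccnb1 is uncertain, since 59.3% of its 50-base windows also occur elsewhere in mm9, among them in the pseudogenes Gm5593 and Gm12856, and how the authors counted such reads is not given in the sources used here.

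Ccnb2 lies on chromosome 9 from 70255496 to 70269361, on the minus strand, in 9 exons. Its level was 249 and 240 FPKM in WT zygotes, 222 and 213 in cKO zygotes, 60.04 and 55.43 in WT 2-cell embryos and 59.3 and 42.4 in cKO 2-cell embryos. It fell 4.24-fold in WT (limma adjusted p = 5.5e-04) and 4.28-fold in cKO embryos (limma adjusted p = 4.3e-04), and both were called in each of the 19 alternative fits. The 2-cell libraries of the genotypes overlapped, with a log2 fold change of -0.20 (95% interval -0.71 to 0.31, limma adjusted p = 0.51), which was 0.27 under median-ratio scaling. It was called lower without cKO 2-cell replicate 1, at -0.44 (limma adjusted p = 0.036). The interaction was -0.03, with an interval of -0.75 to 0.70. The 2 B-type cyclins thus differed in their call at the 2-cell stage, and the difference between the 2 genes was not tested.

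The CDC25 phosphatases activate CDK1. Cdc25b, which is needed for the resumption of meiosis in mouse oocytes, lies on chromosome 2 from 131012685 to 131024233, on the plus strand, in 16 exons. An exon of Spef1 on the opposite strand overlaps it by 92 bases. Its level was 18.7 and 12.8 FPKM in WT zygotes, 17.2 and 12.5 in cKO zygotes, 15.9 and 8.92 in WT 2-cell embryos and 2.19 and 2.91 in cKO 2-cell embryos. The cKO 2-cell libraries were below all the others, and the other groups overlapped. It fell 5.82-fold from cKO zygotes to cKO 2-cell embryos (limma adjusted p = 0.0029), which was called in each of the 19 alternative fits. In WT embryos its log2 fold change was -0.35 (limma adjusted p = 0.45). At the 2-cell stage it was 4.86-fold lower in cKO, with a log2 fold change of -1.87 (standard error 0.36, limma adjusted p = 0.012). That call was lost with a spread for each group (limma adjusted p = 0.19), after quantile normalization (-1.28, 0.061), with the 4 libraries fitted alone (0.11) and without WT 2-cell replicate 1 (-1.49, limma adjusted p = 0.057). The interaction of -1.80 was not called (limma adjusted p = 0.069). It was called after sum scaling (limma adjusted p = 0.041) and over genes with a mean of at least 5 FPKM (0.049). It was further from the threshold after median-ratio scaling (0.16), with a spread for each group (0.23) and after quantile normalization (-1.14, limma adjusted p = 0.27).

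Cdc25a lies on chromosome 9 from 109778083 to 109796392, on the plus strand, in 15 exons. Its level was 27.2 and 29.4 FPKM in WT zygotes, 24.6 and 23.3 in cKO zygotes, 7.92 and 10.5 in WT 2-cell embryos and 16.7 and 3.62 in cKO 2-cell embryos. All 2-cell libraries were below the zygotes, but the cKO 2-cell replicates differed 4.61-fold and lay on either side of the WT ones. The changes of -1.53 in WT and -1.47 in cKO embryos were not called (limma adjusted p = 0.074 and 0.083). By the fold rule the WT fall, of 3.07-fold, passed, and the cKO fall, of 2.36-fold, did not. The WT change was called in 7 of the 19 alternative fits. These were median-ratio scaling, quantile normalization, a mean of at least 5 FPKM, a spread for each group (limma adjusted p = 0.0098), WT embryos fitted alone (0.010), and the fits without cKO 2-cell replicate 1 or cKO 2-cell replicate 2. The cKO change was called in 3 of the 19, which were quantile normalization, a mean of at least 5 FPKM and the fit without cKO 2-cell replicate 1, at -2.43. At the 2-cell stage the log2 fold change was -0.17 (95% interval -1.60 to 1.27, limma adjusted p = 0.88). That difference depended on which cKO library was used. It was called lower without replicate 1, at -1.13 (limma adjusted p = 0.013), and called higher without replicate 2, at 0.80 (limma adjusted p = 0.037).

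Plk1, the kinase that activates CDC25 and the spindle machinery, lies on chromosome 7 from 129302951 to 129313389, on the plus strand, in 10 exons. Its level was 80.4 and 60.1 FPKM in WT zygotes, 81.6 and 64.5 in cKO zygotes, 55.8 and 93.4 in WT 2-cell embryos and 76.7 and 20.3 in cKO 2-cell embryos. The groups overlapped in all 4 comparisons, and Plk1 was called in 0 of them. The cKO 2-cell replicates differed 3.77-fold. At the 2-cell stage the log2 fold change was -0.85, with a 95% interval of -2.33 to 0.64 (limma adjusted p = 0.33). Without cKO 2-cell replicate 1 it was called lower than in WT, at -1.78 (limma adjusted p = 0.026). Of its 50-base windows, 7.99% also occur elsewhere, mostly in the pseudogene Plk-ps1.

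**Figure D3:**
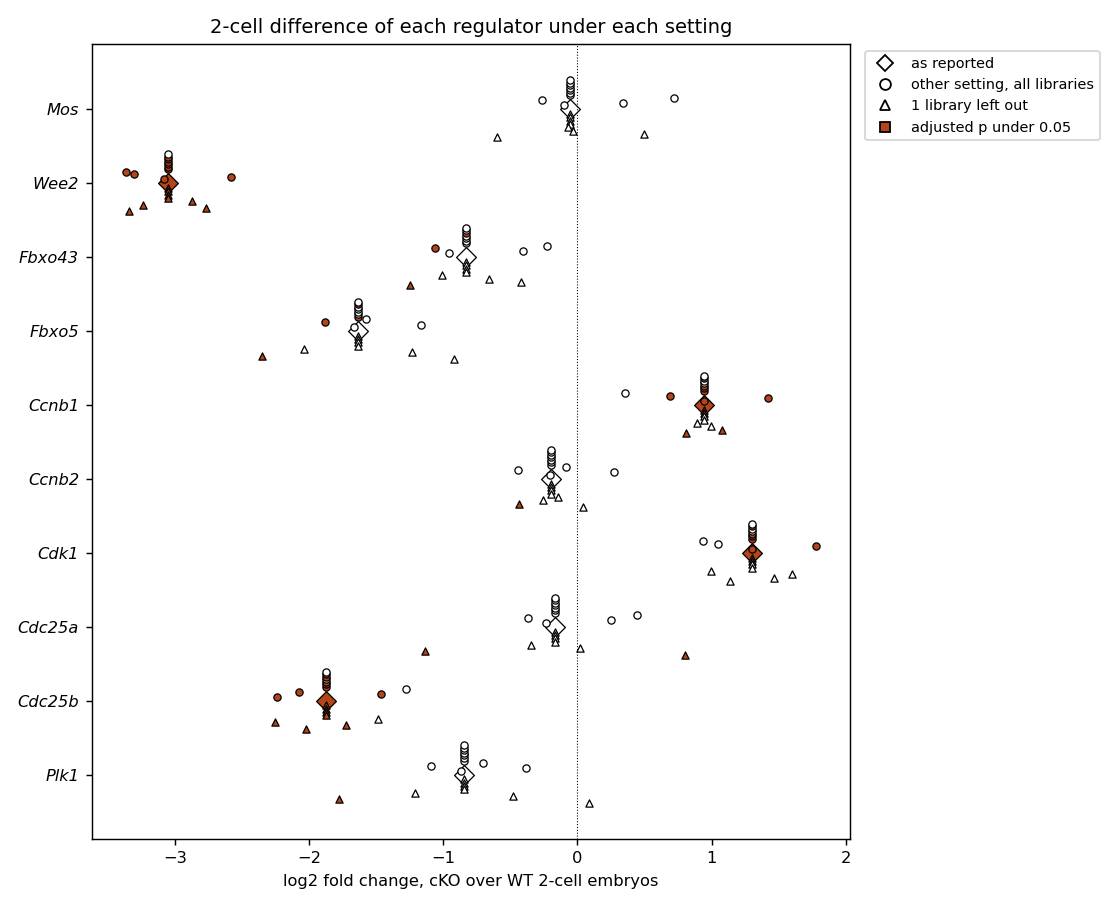
log2 fold change of cKO over WT 2-cell embryos for each gene as reported (diamonds), under 11 other settings (circles) and with each of the 8 libraries left out (triangles); filled symbols have an adjusted p under 0.05. Wee2 stays between -3.36 and -2.58. Mos, Ccnb2, Cdc25a and Plk1 have values on both sides of 0, and those of Cdc25a span -1.13 to 0.80.

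Ratios of 2 genes within a library do not depend on its scaling. They were chosen after the values were seen and are a description. The ratio of Cdk1 to Wee2, the kinase to its inhibitor, was 0.13 and 0.071 in WT zygotes, 0.15 and 0.11 in cKO zygotes and 0.27 and 0.54 in WT 2-cell embryos. In cKO 2-cell embryos it was 8.75 and 7.31. The FPKM of Wee2 was thus above that of Cdk1 in 6 libraries and below it in the 2 cKO 2-cell libraries. The ratio of Cdk1 to Cdc25b was 1.81 to 2.79 in the zygotes, 9.01 and 24.4 in WT and 178 and 168 in cKO 2-cell embryos. The ratio of Ccnb1 to Ccnb2 was 3.76 to 5.09 in the zygotes, 9.82 and 11.5 in WT and 18.1 and 30.5 in cKO 2-cell embryos. The ratio of Ccnb1 to Cdk1 was 24.2 to 39.1 in the zygotes, 4.12 and 2.92 in WT and 2.76 and 2.65 in cKO 2-cell embryos. Both ratios with Ccnb1 carry the uncertainty of its level. Of its 50-base windows, 59.3% also occur elsewhere in mm9, compared with 0.067% for Ccnb2 and 0% for Cdk1. The 2 replicates of cKO 2-cell embryos, which differed over many genes, were close to each other in the ratios of Cdk1 to Wee2 and Cdk1 to Cdc25b.

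**Figure D4:**
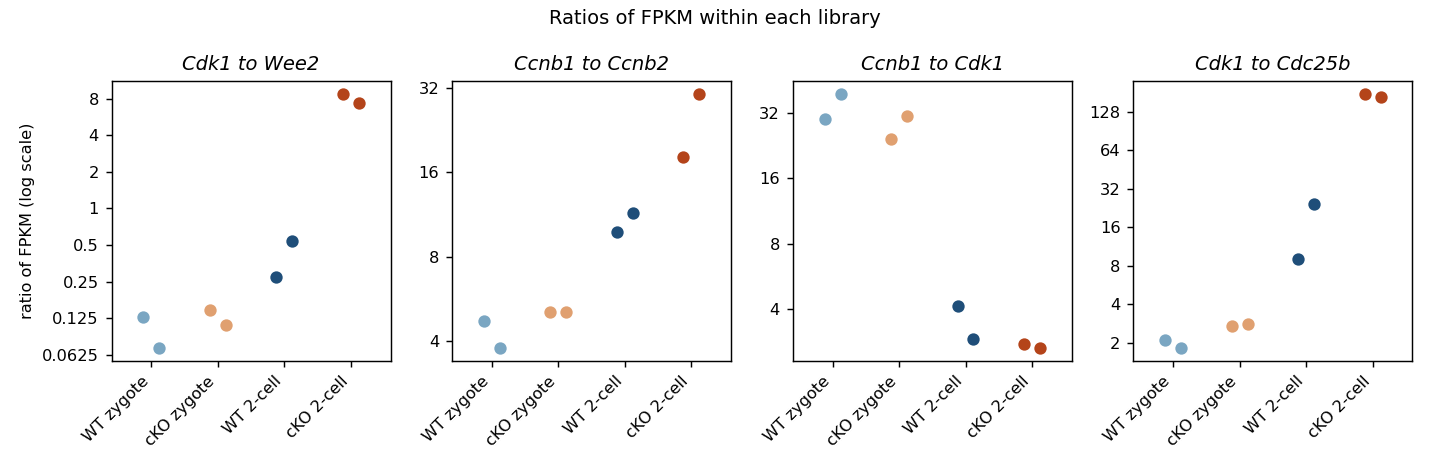
Ratio of the FPKM of 2 genes within each library, on a log scale, for 4 pairs and the 2 libraries of each group. The ratio of Cdk1 to Wee2 is at 0.54 or lower in 6 libraries and at 7.31 and 8.75 in cKO 2-cell embryos.

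The other genes of the pathway were described from 6 lists, of which 92 genes were measured. At the 2-cell stage 4 of the 92 were called higher in cKO, compared with 6.16% of all genes, and 24 were called lower, compared with 24.6%, so that both shares were near those of all genes. All genes include those at the floor of 1 FPKM, 1642 to 4747 in a library. In the fit of the 7872 genes with a mean of at least 5 FPKM, 781 were called higher and 2280 lower. The median of the 92 genes was -0.42, while that of all genes was -0.30. With a spread for each group, 2 of the 4 and 3 of the 24 were still called: Cdk4 and Ccnh among the higher, and Ppp3r1, Ccnd1 and Ccnd2 among the lower. Of 2 higher and 9 lower interactions, 0 and 2 were still called, those of Ppp3r1 and Ccnd2. In zygotes 0 were called in either direction.

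The kinases downstream of MOS and the SCF ligase that targets FBXO43 formed a list of 12 measured genes, of which 4 were called lower in cKO 2-cell embryos, compared with 24.6% of all genes, and 0 higher, compared with 6.16% (median -0.61). With a spread for each group 0 were called. Mapk3, which encodes the MAP kinase ERK1, was at 86.1 and 73.5 FPKM in WT and 6.47 and 9.51 in cKO 2-cell embryos, a 9.99-fold difference (log2 fold change -3.18, limma adjusted p = 0.0021, or 0.062 with a spread for each group). Its interaction was called too, at -3.38 (limma adjusted p = 0.013, or 0.066). Map2k1, the MAPK kinase MEK1, was lower 2.82-fold (limma adjusted p = 0.0036, or 0.060), and Cul1, the scaffold of the SCF ligase, 2.50-fold (limma adjusted p = 0.011, or 0.066). In WT embryos 2 of the 12 fell and 1 rose from zygote to 2-cell embryo, while 15.5% of all genes fell and 34.2% rose. In cKO embryos 5 fell and 1 rose, while 27.1% of all genes fell and 24.6% rose.

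Of the 9 measured genes of the calcium and calcineurin arm, which triggers the exit from meiosis, 4 were called lower in cKO 2-cell embryos, compared with 24.6% of all genes, and 0 higher, compared with 6.16% (median -1.20). With a spread for each group 1 was called lower, Ppp3r1. Ppp3r1, the regulatory subunit of calcineurin, was at 59.99 and 67.57 FPKM in WT and 11.9 and 7.67 in cKO 2-cell embryos, which was 6.52-fold lower (limma adjusted p = 0.0017, or 0.015 with a spread for each group), and its interaction was -2.65 (limma adjusted p = 0.012, or 0.019). From zygote to 2-cell embryo, 3 genes fell and 2 rose in WT embryos, where 15.5% of all genes fell and 34.2% rose. In cKO embryos 6 fell and 2 rose, while 27.1% of all genes fell and 24.6% rose.

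Of the 16 genes of the APC/C and its enzymes, 1 was called higher in cKO 2-cell embryos, compared with 6.16% of all genes, and 2 lower, compared with 24.6% (median 0.39). Anapc10 was 3.13-fold higher (limma adjusted p = 0.041, or 0.20 with a spread for each group). Anapc2 was 2.64-fold lower (limma adjusted p = 0.024, or 0.25) and Anapc1 1.83-fold lower (limma adjusted p = 0.021, or 0.18). All 3 encode subunits of the complex. Ube2c, the ubiquitin-conjugating enzyme of the APC/C, rose from zygote to 2-cell embryo in WT (log2 fold change 2.87) and in cKO embryos (3.06), and was at 561 and 731 FPKM in WT and 1039 and 892 in cKO 2-cell embryos. The genes of the Greatwall kinase and the phosphatase PP2A-B55, which opposes CDK1, gave 1 lower and 0 higher of 11, compared with 24.6% and 6.16% of all genes (median -0.23). The lower gene was Ppp2r1b, at 2.38-fold (limma adjusted p = 0.0496, or 0.17 with a spread for each group). Mastl, the Greatwall kinase itself, was at 32.59 and 36.03 FPKM in WT and 30.8 and 35.4 in cKO 2-cell embryos. From zygote to 2-cell embryo Mastl fell in WT embryos (log2 fold change -0.84, limma adjusted p = 0.017). It was called lower in cKO embryos too, from 56.9 and 68.1 FPKM in cKO zygotes.

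Of 26 other cyclins, CDKs and CDK regulators, 2 were called higher in cKO 2-cell embryos, compared with 6.16% of all genes, and 9 lower, compared with 24.6% (median -0.78). With a spread for each group 2 were called higher and 2 lower. Cdk4, a kinase of G1 phase, was at 13.2 and 7.55 FPKM in WT and 67.2 and 88.1 in cKO 2-cell embryos, which was 7.49-fold higher (limma adjusted p = 0.0030, or 0.042 with a spread for each group). Ccnh, the cyclin of the CDK-activating kinase, was 4.47-fold higher (limma adjusted p = 0.0035, or 0.044). The interactions of Cdk4 and Ccnh were 2.65 and 1.72 (limma adjusted p = 0.023 and 0.034) and were lost with a spread for each group (0.059 and 0.077). Among the lower genes were the 3 D-type cyclins, with Ccnd3 lower by 3.52-fold (limma adjusted p = 0.020, or 0.062), and the kinase gene Wee1. Ccne1 and Cdc25c rose from zygote to 2-cell embryo in both genotypes, with log2 fold changes of 6.09 and 5.28 in WT and 5.81 and 4.41 in cKO embryos. Of the 18 other M-phase kinases and partners, 1 was called higher, Tpx2, compared with 6.16% of all genes, and 4 lower, compared with 24.6% (median -0.10). With a spread for each group 0 were called. Prkar2b was 4.40-fold and Prkaca 3.52-fold lower (limma adjusted p = 0.019 and 0.011, or 0.077 and 0.054 with a spread for each group). They encode a regulatory and a catalytic subunit of protein kinase A, which holds the oocyte in prophase. Plk2 was 3.42-fold lower (limma adjusted p = 0.011, or 0.16). The interaction was called for Prkaca, at -1.94 (limma adjusted p = 0.044), Plk2, at -1.77 (0.043), and Plk4, at -1.67 (0.016), and was lost for all 3 with a spread for each group (0.051, 0.15 and 0.060). All the 2-cell counts of the lists fell to 0 when the 4 libraries of the comparison were fitted alone. Over the alternatives the lower count reached 12 for the cyclins and CDKs. It reached 7 for the CSF and MAPK genes and for the M-phase kinases, both without cKO 2-cell replicate 1. Without WT 2-cell replicate 2 the lower counts of these 3 lists were 3, 2 and 2.

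**Figure D5:**
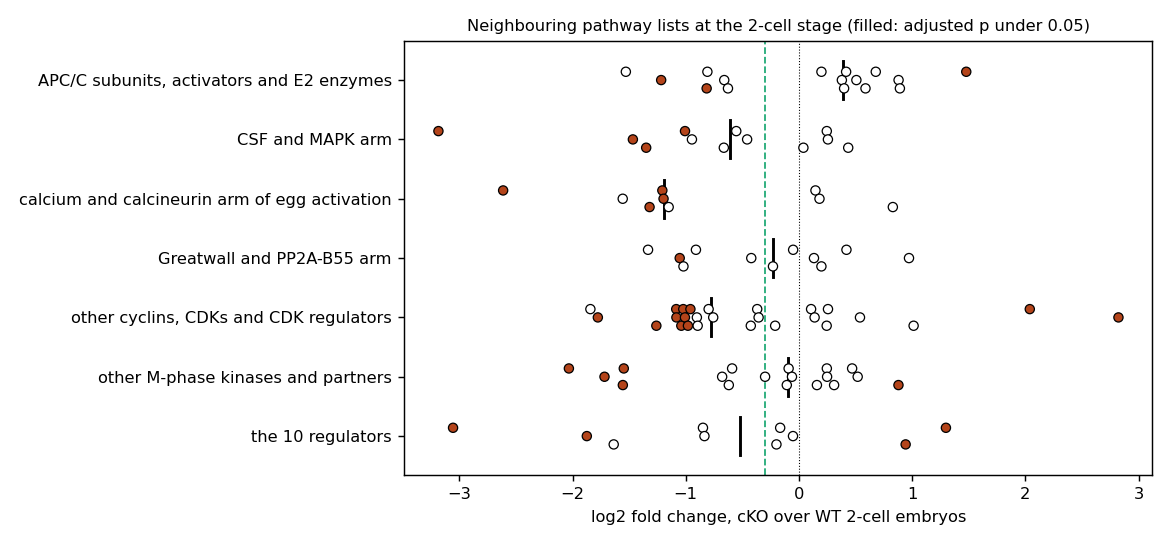
log2 fold change of cKO over WT 2-cell embryos for each measured gene of 6 pathway lists and for the 10 genes described here; filled points have an adjusted p under 0.05, black bars are the medians of the lists, the dotted line is 0 and the dashed line is the median of all genes, -0.30. The calcium and calcineurin list has the lowest median, -1.20, and the APC/C list the highest, 0.39.

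Genes whose pattern was most like that of each gene were sought among the 5856 genes with a mean of at least 10 FPKM. The measure was the root mean square difference of log2(FPKM + 1) over the 8 libraries, after each gene was centred on its mean. The nearest to Wee2 was Gng12, with a difference of 0.18, followed by Gm5622, with 0.20. Gng12 was at 76.1 and 71.4 FPKM in WT and 8.53 and 8.25 in cKO 2-cell embryos. The nearest to Cdc25b were Gm5177 (0.15) and Gm5134 (0.15), and to Ccnb1 they were Cdc42 (0.12) and Bnip2 (0.13). The nearest to Ccnb2 were Paip2b (0.12) and Exoc1 (0.13), to Fbxo43 Asf1a (0.14) and Elmod2 (0.19), and to Fbxo5 Dda1 (0.15) and Sdc1 (0.18). Cdk1 was nearest to Wbscr22 (0.21) and Chchd2 (0.25), and Mos to Atp6v1g1 (0.24) and 4930562C15Rik (0.26). The nearest genes to Cdc25a were Csrnp2 (0.18) and Nipbl (0.19), and to Plk1 they were Ncoa3 (0.16) and Cfl1 (0.17). Those of Cdc25a and Plk1 shared the low value in cKO 2-cell replicate 2, with Ncoa3 at 46.5 and 9.92 FPKM and Csrnp2 at 26.4 and 5.78 in the 2 replicates.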

How the data were processed

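Total RNA of 10 embryos per sample was converted to cDNA by Smart-seq2 with oligo-dT primers. Reads were trimmed, mapped to mm9 with TopHat2 2.1.1 and quantified with Cufflinks 2.2.1, and the authors deposited FPKM values. Genes under 1 FPKM in every sample had been removed and lower values of the others set to 1. The annotation and the handling of reads with several matches are not given in the sources used here. FPKM carry no counts, so the depth is unknown and precision rests on 2 libraries per group. From the table, limma 3.58.1 (R 4.3.3) was fitted to log2(FPKM + 1) with a mean-dependent prior variance, for 4 groups and 8 libraries in 1 model (4 residual degrees of freedom), with Benjamini-Hochberg adjustment over all 14392 genes at 0.05. Fold changes on this scale understate those of low genes. A 3-fold rule on group means was used beside it, without a test. Scripts were tested on simulated data. Coordinates and transcripts are from GENCODE M1 on mm9, and promoters from RefSeq. Repeated sequence was measured as the share of 50-base transcript windows with a second exact match in mm9.

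Genes named were the 10 genes, Usp16, at most 3 called genes with the largest changes per pathway list and comparison, and the 2 nearest patterns per gene, and Tpx2, Wee1, the D-type cyclins, marker genes and genes sharing sequence were named beside their counts after their values were seen. The members and lists were chosen with earlier results of these data known. Alternatives covered the pseudocount, scaling, filter, prior, spread, samples, replicate block and each library left out. ChIP-seq was not analysed here, and not every list gene that the rule names is reported here.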

Additional observations from a re-analysis of the deposited data

Results flagged for a closer look

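The genotype effect on Wee2 differed between the stages by a log2 fold change of -3.06 in the interaction test of limma (adjusted p = 0.010, over alternatives 0.0049 to 0.079). In zygotes the difference between cKO and WT was 0.00, with overlapping libraries, and at the 2-cell stage it was -3.06, with both cKO libraries below both WT libraries.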

How the results depend on the processing

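Depth is unknown, and the precision rests on 2 libraries a group. Over the 10 genes, 940 values were recomputed, of which 827 kept their direction and their side of the threshold, 42 lost and 31 gained a call, and 40 changed sign. The 10 genes had 4 limma calls in 2-cell embryos, 1 after quantile normalization, 1 with a spread for each group and 0 with the 4 libraries fitted alone. The interaction had 1 call, and 2 after sum scaling, 2 with a mean of at least 5 FPKM and 2 with the crossed replicate block. A 2-fold threshold gave 4 genes in place of 2 in 2-cell embryos. Apart from the construction of these fits, the cause of the changes was not tested.

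With 1 library left out, the limma calls were 3 to 8 in WT embryos between stages, lowest without WT zygote replicate 1. They were 1 to 7 in 2-cell embryos, lowest without WT 2-cell replicate 1, and 0 to 2 for the interaction, and 0 without each of the 4 zygote libraries. The lowest count in WT embryos between stages also came without WT 2-cell replicate 1 or WT 2-cell replicate 2. The highest counts there and for the interaction came without either of the cKO 2-cell replicates. In 2-cell embryos the highest count came without cKO 2-cell replicate 1, as did the 4 of the fold rule, whose lowest was 2. A group left with 1 library is assumed to vary like the others. The log2 fold changes that changed sign ranged in WT embryos between stages from -0.73 to 0.037 for Cdc25b and from -0.31 to 0.42 for Plk1. In cKO embryos they ranged from -1.13 to 0.30 for Fbxo5, from -0.043 to 0.22 for Ccnb1 and from -1.79 to 0.079 for Plk1. In zygotes they ranged from -0.044 to 0.047 for Wee2, -0.19 to 0.10 for Fbxo43, -0.092 to 0.29 for Ccnb1, -0.33 to 0.18 for Cdc25b and -0.15 to 0.27 for Plk1. In 2-cell embryos they ranged from -0.60 to 0.50 for Mos, -0.44 to 0.040 for Ccnb2, -1.13 to 0.80 for Cdc25a and -1.78 to 0.085 for Plk1. For the interaction they ranged from -0.27 to 0.21 for Ccnb2, -0.90 to 1.03 for Cdc25a and -1.84 to 0.024 for Plk1.

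Under median-ratio scaling the sign changed for Plk1 in WT embryos between stages (-0.27), Wee2 in zygotes (-0.026), Mos (0.34), Ccnb2 (0.27) and Cdc25a (0.25) in 2-cell embryos, and Ccnb2 in the interaction (0.47). Under quantile normalization it changed for Plk1 in WT (-0.21) and Ccnb1 in cKO embryos between stages (-0.26), Mos (0.72) and Cdc25a (0.44) in 2-cell embryos, and Mos (0.066) and Ccnb2 (0.092) in the interaction. Under sum scaling it changed for Ccnb1 in cKO embryos between stages (-0.10), Wee2 in zygotes (-0.029) and Cdc25a in the interaction (-0.11). Over all genes, sum scaling gave 582 higher and 4312 lower in 2-cell embryos, quantile normalization 1370 and 1464, and a spread for each group 120 and 854.

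The replicate numbers give no shared animal or day. The deviations of libraries of the same number had a correlation of 0.497 between WT and cKO zygotes, and of -0.239 to 0.11 between the other pairs of groups. The cause of the correlation in zygotes was not tested, and the main fit has no term for it. With the replicate block the 10 genes had 4, 6, 0, 3 and 1 limma calls in the stage comparison of WT and of cKO embryos, the zygotes, the 2-cell embryos and the interaction. The block moved Fbxo43 past the threshold in 2-cell embryos (limma adjusted p = 0.0499) and Ccnb1 and Cdk1 out of it (both 0.057), and Ccnb1 out of it in WT embryos between stages (0.074). With the numbers of the cKO 2-cell libraries crossed, an alternative chosen after seeing the data, the counts were 5, 6, 0, 5 and 2.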
